A study of Mus musculus with 8 samples.

Results

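The cytochrome P450 genes of families 1 to 4 were followed through 2 deposited lists of H3K27-me3 regions from mouse liver. The members were the protein-coding genes of the GENCODE M21 annotation on chromosomes 1 to 19 whose symbol starts with Cyp1, Cyp2, Cyp3 or Cyp4, followed by a subfamily letter and a number. There were 80 such genes among 20720 protein-coding genes on these chromosomes. They comprised 3 genes of family 1, 48 of family 2, 9 of family 3 and 20 of family 4, and 71 of them lay in 8 clusters of neighbouring members.

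The study asked how the histone demethylase JMJD3 (gene Kdm6b), an enzyme that strips this methyl mark from histone H3, shapes it in fasted liver. All mice were males of the C57BL/6 strain carrying floxed Kdm6b alleles. They were injected at 8 weeks of age either with AAV-TBG-Cre, in which the hepatocyte promoter TBG drives the recombinase that deletes the floxed alleles, or with the control virus AAV-GFP, and all were fasted for 16 h at 12 weeks after injection. Each virus contributed 2 H3K27-me3 chromatin immunoprecipitation (ChIP-seq) libraries and 2 input libraries from 2 mice. Each group had only a single list, however, made of peaks that the study kept as overlapping across replicates. Values per mouse were therefore not analysed here, no difference between the lists has a replicate error, and no test between the groups could be made.

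P450 enzymes are heme proteins of the endoplasmic reticulum that insert oxygen into drugs, steroids, fatty acids and bile acids, and the liver is the main organ for much of this chemistry. Families 1 to 3 are best known for foreign compounds and steroids and family 4 for the hydroxylation of fatty acids. Many of the genes arose by tandem duplication and are expressed in particular tissues, at particular ages or mainly in one sex. H3K27-me3 is laid down by Polycomb repressive complexes and is typical of genes that are kept silent in a given cell type.

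The lists differed in size and in the shape of their regions, which bears on every comparison. The AAV-Cre list held 59267 regions and the AAV-GFP list 34586. On chromosomes 1 to 19 they covered 73.3 Mb and 14.8 Mb, 2.98% and 0.602% of the bases, a ratio of 4.94. The median region was 753 bp wide in the AAV-Cre list and 231 bp wide in the AAV-GFP list, and the narrowest were 300 bp and 120 bp. A q-value of 0.05 or lower was reached by 88.5% of AAV-Cre regions and 46.8% of AAV-GFP regions. Read depth was not given by the lists, so depth behind each region is unknown, and the part that list size and region width played in any difference below was not tested. Fold enrichment over input and p-values are compared only within a list. Whole liver holds several cell types, so a region may come from hepatocytes or from other cells. Of 18 hepatocyte marker genes, 0 lay within 15 kb of a region in either list. The AAV-Cre list had regions near 2 of 5 Kupffer cell, 4 of 5 endothelial and 4 of 5 stellate markers. It also had regions near 5 of 5 cholangiocyte and 4 of 5 lymphocyte markers. In the AAV-GFP list these counts were 0, 2, 5, 4 and 1. Over all protein-coding genes the shares were 43.1% in the AAV-Cre list and 29.0% in the AAV-GFP list. The 2 of 5 Kupffer cell markers in the AAV-Cre list lie near that list's share. The Kdm6b start site itself lay 7386 bp from an AAV-Cre region and 51345 bp from an AAV-GFP region, which does not measure the deletion.

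Marked genes were those with a region no farther than 15 kb from any of their start sites. Start sites inside regions of both lists were found for 5 members, Cyp1b1, Cyp4x1, Cyp2s1, Cyp3a16 and Cyp3a44. The 250 bases upstream of the most upstream start site of each are printed from the GRCm38 reference, the assembly that mm10 names. AAV-Cre regions covered all 250 bases for these 5 genes. AAV-GFP regions covered all 250 for Cyp1b1, 158 for Cyp3a16, 107 for Cyp3a44 and 0 for Cyp4x1 and Cyp2s1, where the start site inside the AAV-GFP region was one farther downstream. Sequences of 2 hepatocyte genes are shown beside them, Cyp3a11, which was marked in neither list, and Cyp2e1. The start site of Cyp2e1 lay in no region, but this gene was marked in both lists. The last sequence is 300 bases around the summit of an AAV-Cre region in the Cyp3a cluster that overlapped no AAV-GFP region. All are written 5′ to 3′, on the strand of the gene for promoters and on the plus strand for the region, with CG dinucleotides in capitals.
Cyp1b1: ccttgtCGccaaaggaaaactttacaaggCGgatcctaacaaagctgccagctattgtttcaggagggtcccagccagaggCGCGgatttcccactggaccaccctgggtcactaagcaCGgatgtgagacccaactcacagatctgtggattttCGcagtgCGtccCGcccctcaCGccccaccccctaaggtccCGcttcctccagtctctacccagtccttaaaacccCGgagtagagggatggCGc
Cyp4x1: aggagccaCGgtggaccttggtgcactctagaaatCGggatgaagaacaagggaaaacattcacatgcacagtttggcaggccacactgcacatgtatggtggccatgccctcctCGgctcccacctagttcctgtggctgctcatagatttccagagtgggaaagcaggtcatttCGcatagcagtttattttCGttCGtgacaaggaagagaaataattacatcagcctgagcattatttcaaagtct
Cyp2s1: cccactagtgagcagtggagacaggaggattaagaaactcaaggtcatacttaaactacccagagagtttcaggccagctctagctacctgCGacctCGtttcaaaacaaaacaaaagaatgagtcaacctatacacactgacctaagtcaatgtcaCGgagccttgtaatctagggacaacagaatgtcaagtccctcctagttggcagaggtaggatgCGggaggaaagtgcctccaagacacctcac
Cyp3a16: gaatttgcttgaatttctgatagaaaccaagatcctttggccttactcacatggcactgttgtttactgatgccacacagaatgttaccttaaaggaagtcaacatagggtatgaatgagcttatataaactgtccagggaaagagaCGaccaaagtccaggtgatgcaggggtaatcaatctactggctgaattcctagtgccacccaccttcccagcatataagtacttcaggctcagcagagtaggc
Cyp3a44: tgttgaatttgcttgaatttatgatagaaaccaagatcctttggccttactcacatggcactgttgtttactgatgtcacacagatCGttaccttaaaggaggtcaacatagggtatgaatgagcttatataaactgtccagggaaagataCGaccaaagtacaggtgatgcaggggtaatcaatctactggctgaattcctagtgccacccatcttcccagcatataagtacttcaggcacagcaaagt
Cyp3a11: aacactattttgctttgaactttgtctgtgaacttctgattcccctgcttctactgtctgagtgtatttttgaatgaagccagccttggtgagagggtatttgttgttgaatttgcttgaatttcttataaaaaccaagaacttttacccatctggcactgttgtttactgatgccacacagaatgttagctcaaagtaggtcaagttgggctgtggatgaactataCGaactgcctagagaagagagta
Cyp2e1: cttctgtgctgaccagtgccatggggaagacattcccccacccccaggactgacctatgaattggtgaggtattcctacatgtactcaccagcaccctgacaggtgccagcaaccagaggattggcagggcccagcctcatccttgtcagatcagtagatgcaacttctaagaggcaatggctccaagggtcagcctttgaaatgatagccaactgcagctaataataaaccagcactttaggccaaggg
AAV-Cre region near Cyp3a41a: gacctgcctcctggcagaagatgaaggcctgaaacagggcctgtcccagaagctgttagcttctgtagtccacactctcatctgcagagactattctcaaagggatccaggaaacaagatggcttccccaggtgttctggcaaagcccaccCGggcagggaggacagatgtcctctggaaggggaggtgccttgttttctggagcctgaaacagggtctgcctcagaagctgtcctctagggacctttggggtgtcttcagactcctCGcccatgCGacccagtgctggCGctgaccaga

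These stretches lie at chr17:79715062-79715311 (minus strand) for Cyp1b1, chr4:115134282-115134531 (minus) for Cyp4x1, chr7:25816914-25817163 (minus) for Cyp2s1, chr5:145469724-145469973 (minus) for Cyp3a16, chr5:145805875-145806124 (minus) for Cyp3a44, chr5:145879965-145880214 (minus) for Cyp3a11, chr7:140763489-140763738 (plus) for Cyp2e1 and chr5:145661947-145662246 for the region. The promoter of Cyp1b1 held 12 CG dinucleotides, a number reached or exceeded by 43.6% of all protein-coding genes. Cyp4x1 held 6 and Cyp2s1 held 4, numbers reached by 61.8% and 70.8% of genes. Cyp3a44 held 2 and Cyp3a16 held 1, the same number as Cyp3a11, and Cyp2e1 held 0. Across all 80 members the median was 2 CG, against 9 over all protein-coding genes. The 10 members with a start site inside an AAV-Cre region had a median of 3.50 (range 1 to 12). The 14 others with a region within 15 kb had a median of 1.50 (0 to 3). The 56 not marked in that list had a median of 2 (0 to 17). The members with most CG dinucleotides, Cyp4v3 with 17 and Cyp2r1 with 16, were marked in neither list and were picked out after their values were seen. Cyp2r1 encodes a vitamin D hydroxylase.

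In the AAV-Cre list 24 of the 80 members (30.0%) were marked, against 43.1% of all protein-coding genes. In the AAV-GFP list 14 members (17.5%) were marked, against 29.0% of all genes. The share of marked members was thus below that of all genes in both lists. Both lists marked 13 members (16.2%, against 27.7% of all genes), the AAV-Cre list alone marked 11 (13.8%, against 15.3%), the AAV-GFP list alone marked 1 (1.25%, against 1.25%), and 55 were marked in neither. The start site itself lay inside an AAV-Cre region in 10 of the 80 members and inside an AAV-GFP region in 5 of the 80. Of all genes 20.1% and 11.4% had such start sites. A region overlapped the gene body of 25 members in the AAV-Cre list and of 15 in the AAV-GFP list, 31.2% and 18.8% of members, against 29.8% and 21.4% of all genes. At least 10% of the gene body lay inside regions for 16 of the 80 members in the AAV-Cre list. In the AAV-GFP list this held for 2 of the 80. Of all genes 16.1% and 6.16% had such coverage. The median distance from a member's start site to the nearest AAV-Cre region was 44634 bp, and over all genes it was 23899 bp. For the AAV-GFP list the medians were 105881 bp and 53778 bp. For each marked member no other protein-coding gene had a start site closer to that nearest region. Of the regions nearest to the 24 members marked in the AAV-Cre list, 24 had a q-value of 0.05 or lower and 5 were among the strongest 10% of the list by p-value. Of the 14 in the AAV-GFP list, 7 and 2 met these criteria.

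**Figure D1:**
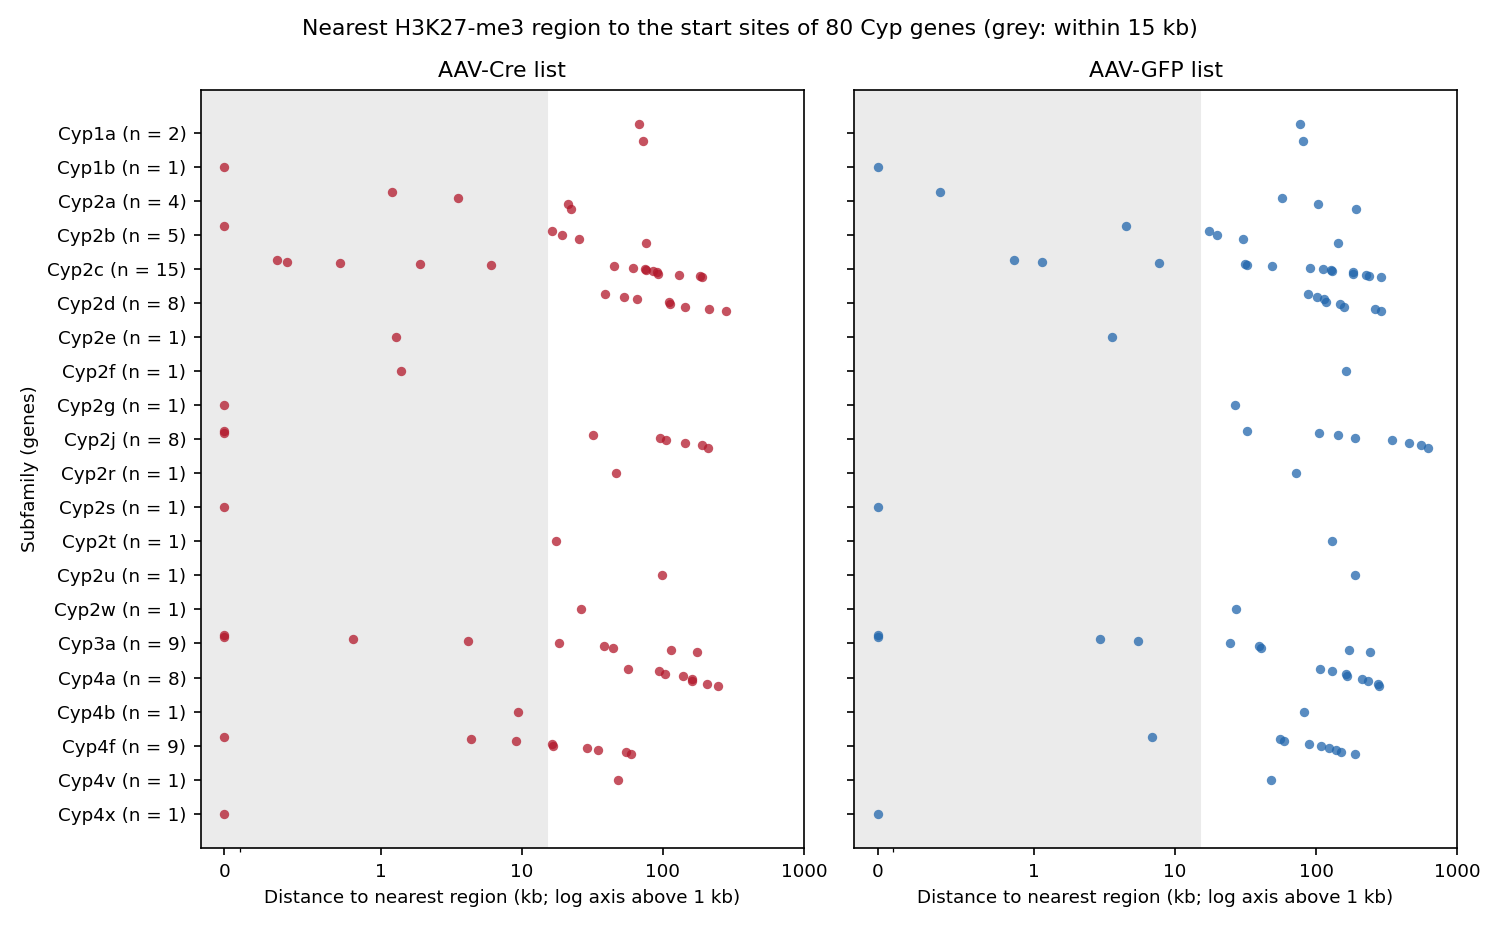
Distance from each of 80 Cyp genes' start sites to the nearest H3K27-me3 region, 1 point per gene in rows by subfamily, for the AAV-Cre list (left) and the AAV-GFP list (right); the axis is in kb, logarithmic above 1 kb, and grey marks the 15 kb window. Grey holds 24 points on the left and 14 on the right, and the Cyp2d, Cyp4a and Cyp1a rows have none in either panel.

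Marked genes were counted by subfamily, beside 43.1% of all genes in the AAV-Cre list and 29.0% in the AAV-GFP list. Most genes of a subfamily lie in the same cluster, so they are not independent cases, and differences between subfamilies were not tested. None of the 8 Cyp2d, 8 Cyp4a or 2 Cyp1a genes was marked in either list. With 0 of 8 marked, the Wilson 95% interval for counting error was 0 to 32.4%, below 43.1% but not 29.0%. The intervals of Cyp1a, Cyp3a, Cyp2c, Cyp4f and Cyp2b included the all-gene share in each list. Cyp1a1 and Cyp1a2, which oxidise aromatic compounds under control of the aryl hydrocarbon receptor, lay 71871 bp and 67646 bp from the nearest AAV-Cre region. The Cyp4a enzymes hydroxylate fatty acids and are targets of PPARα in fasting, and the median distance for this subfamily was 149593 bp in the AAV-Cre list and 189367 bp in the AAV-GFP list. Of 9 Cyp3a genes 4 were marked in both lists, and of 15 Cyp2c genes 5 were marked in the AAV-Cre list and 3 in the AAV-GFP list. Of 9 Cyp4f genes 3 were marked in the AAV-Cre list and 1 other in the AAV-GFP list. Of 5 Cyp2b genes 1 was marked in both lists.

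Cyp1b1, the family 1 member expressed mostly outside the liver, stood alone at chr17:79701537-79715061 and had the strongest mark at a member's start site. The AAV-Cre region over its start site, chr17:79711083-79716469, was 5387 bp wide with a fold enrichment over input of 9.69 and a q-value of 7.26e-48, within the strongest 1.18% of its list. The AAV-GFP region there was 2292 bp wide with a fold of 5.15 and a q-value of 4.27e-18, within the strongest 1.46% of its own list. Regions covered 50.3% of the Cyp1b1 body in the AAV-Cre list and 32.0% in the AAV-GFP list. It therefore ranked high in both lists.

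Cyp4x1, a family 4 enzyme known from brain, had its start site in an AAV-Cre region of 2342 bp, chr4:115132793-115135134, with a fold of 9.57 and a q-value of 2.44e-37. The AAV-GFP region at this start site was 533 bp wide with a fold of 2.73 and a q-value of 0.00102. Cyp2s1, an enzyme of epithelia, had a 3170 bp AAV-Cre region over its start site with a fold of 5.82 and a q-value of 1.17e-19, and a 1257 bp AAV-GFP region with a fold of 4.68 and a q-value of 1.14e-11. Both genes were thus marked over the start site in either group, with the wider region in the AAV-Cre list. Annotated noncoding exons overlap the printed upstream sequence of Cyp4x1 and Cyp2s1.

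The Cyp3a genes encode steroid and drug hydroxylases, and Cyp3a11 is their main form in adult mouse liver. Cyp3a16 (chr5:145436309-145469723) had the highest body coverage of all members in the AAV-Cre list and came after Cyp1b1 in the AAV-GFP list. Its body was covered to 71.6% by 8 AAV-Cre regions and to 29.3% by 30 AAV-GFP regions. The AAV-Cre region over its start site was 3486 bp wide with a fold of 6.65 and a q-value of 3.27e-22, and the AAV-GFP region there was 224 bp wide with a fold of 3.83 and a q-value of 4.92e-05. The AAV-GFP regions over this body were thus more numerous and covered less of it.

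Cyp3a44 had its start site in an AAV-Cre region of 3085 bp with a fold of 4.03 and in an AAV-GFP region of 166 bp with a fold of 3.02. Its body was covered to 26.7% and 4.45%. The nearest regions to Cyp3a41a lay 824 bp upstream in the AAV-Cre list and 2949 bp downstream in the AAV-GFP list, where the q-value was 1.00. For Cyp3a41b these distances were 4139 bp and 5447 bp, both upstream. The bodies of Cyp3a41a and Cyp3a41b were covered to only 3.99% and 6.05% by AAV-Cre regions. These genes are near-identical copies, with 249 of 250 bases shared upstream of their start sites, and only 18.7% and 17.6% of the 50-base words in their bodies occur once in the genome. Over random positions of chromosomes 1 to 19 the share was 89.4%. Short reads from such copies cannot be placed on one of them, so the values for these genes are uncertain.

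The Cyp3a genes without a mark were Cyp3a57, Cyp3a11, Cyp3a25, Cyp3a59 and Cyp3a13. Cyp3a11 lay 37979 bp from the nearest AAV-Cre region and 40778 bp from the nearest AAV-GFP region, and its body, like those of Cyp3a25 and Cyp3a59, overlapped none. Of the 50-base words in these bodies 91.1%, 85.7% and 85.0% occur once. The part of duplicated sequence in their lack of regions was not tested. Cyp3a57 had a start site 18192 bp from the nearest AAV-Cre region but 16.0% of its body, downstream of that point, inside AAV-Cre regions and 2.34% inside AAV-GFP regions.

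Along the Cyp3a cluster (chr5:145330279-146128287, 8 genes and 15 kb on each side) the AAV-Cre list held 127 regions and the AAV-GFP list 189. They covered 25.3% and 8.05% of its bases, against 2.98% and 0.602% of chromosomes 1 to 19. The AAV-GFP list thus had more regions here, over fewer bases. An AAV-GFP region overlapped 76 of the AAV-Cre regions (59.8%, with a 95% interval by Wilson's method of 51.1 to 68.0 for counting error only) by at least 1 bp, and of the AAV-GFP regions 178 (94.2%, 89.9 to 96.7) overlapped an AAV-Cre region. In the whole lists the shares were 24.1% and 86.3%. The median AAV-Cre region of the cluster was 1023 bp wide with a −log10 p of 7.46, against 753 bp and 4.75 in the whole list, and 30 of the 127 were among the strongest 10% of the list. In the AAV-GFP list the cluster's median −log10 p was 4.44 against 3.90, with 16 of 189 among the strongest 10%.

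Joining regions of both lists no more than 15 kb apart gave 3 long stretches in the Cyp3a cluster. The first, chr5:145363479-145536187, ran for 173 kb over the end of Cyp3a57 and all of Cyp3a16 and held 45 AAV-Cre and 78 AAV-GFP regions over 43.3% and 12.3% of its bases. The second, chr5:145574800-145690941, ran for 116 kb from Cyp3a41b into the gap before Cyp3a41a and was the most densely covered, 61.7% and 24.0%. The third, chr5:145710221-145841985, ran for 132 kb over Cyp3a41a and Cyp3a44 and was covered to 41.9% and 11.5%. From there to the end of the cluster, across Cyp3a11, Cyp3a25 and Cyp3a59, only 1 AAV-Cre region of 436 bp and no AAV-GFP region was listed.

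The second stretch held the strongest region of the 8 clusters. It was the AAV-Cre region chr5:145654195-145655435, 1241 bp wide, with a fold of 13.4 and a q-value of 1.97e-62, within the strongest 0.439% of its list. It overlapped 1 AAV-GFP region, 763 bp wide, the strongest AAV-GFP region of the clusters with a −log10 p of 18.8. The start site nearest to both was that of Cyp3a41a, 64701 bp away from the AAV-Cre region. Only 61.5% of the 50-base words in that AAV-Cre region occur once in the genome. A neighbouring AAV-Cre region, chr5:145661162-145664294, overlapped no AAV-GFP region. It was 3133 bp wide with a fold of 6.36 and a q-value of 1.96e-28, lay 55842 bp from the start site of Cyp3a41a in sequence with no annotated gene, and had 70.9% of its 50-base words occurring once. The nearest AAV-GFP region lay 1186 bp from it, and the AAV-Cre regions on either side of it both overlapped AAV-GFP regions. Its summit sequence, printed above, held 4 CG dinucleotides in 300 bases.

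**Figure D2:**
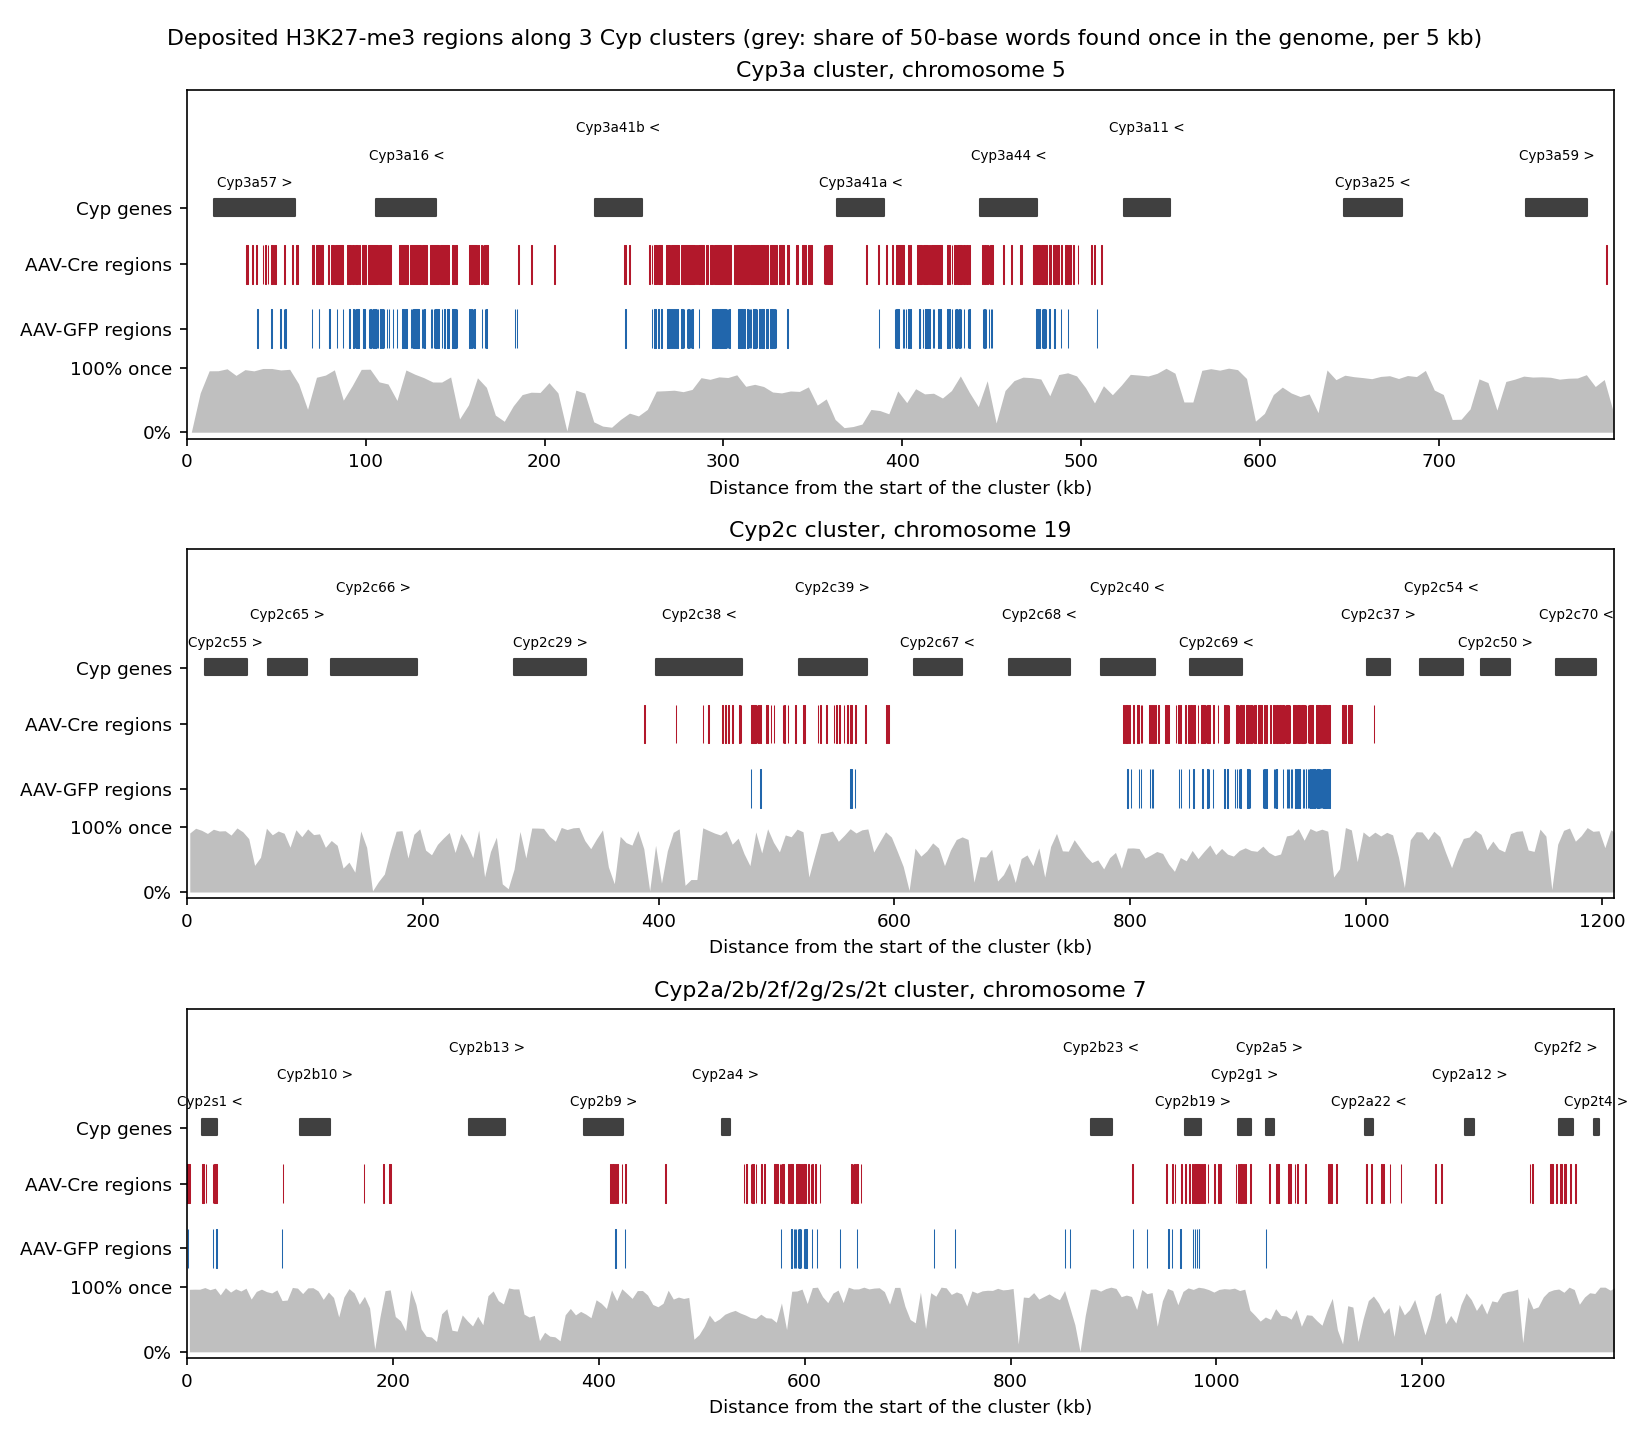
Positions of Cyp genes (dark bars, > plus and < minus strand) and of AAV-Cre (red) and AAV-GFP (blue) regions along 3 clusters, in kb from the cluster's start, with the percent of 50-base words found once in the genome per 5 kb in grey. Regions of both lists sit in the same blocks, around Cyp3a16, Cyp3a41b, Cyp3a41a and Cyp3a44 and around Cyp2c40 and Cyp2c69, while Cyp3a11, Cyp3a25 and Cyp3a59 have none.

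The Cyp2c genes encode enzymes that act on drugs, steroids and arachidonic acid. Their cluster on chromosome 19 (chr19:38992019-40202333, 14 genes) held 120 AAV-Cre and 77 AAV-GFP regions over 9.28% and 1.96% of its bases. Of the AAV-Cre regions 45 (37.5%, 29.4 to 46.4) overlapped an AAV-GFP region. The regions fell into 2 main stretches. One of 194 kb, chr19:39785870-39980085, over Cyp2c40 and Cyp2c69 and the gap before Cyp2c37, held 80 AAV-Cre and 72 AAV-GFP regions, over 43.3% and 11.7% of its bases. The other of 139 kb, chr19:39429561-39568221, over Cyp2c38 and Cyp2c39, held 35 AAV-Cre and 5 AAV-GFP regions, over 18.5% and 0.687%. The ratio of covered bases between the lists thus differed between these neighbours. In the 5 marked members of this cluster no start site lay inside a region.

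Cyp2c69 had the strongest region near a Cyp2c start site, 399 bp downstream of it, with a width of 1529 bp, a fold of 8.65 and a q-value of 2.51e-31 in the AAV-Cre list. In the AAV-GFP list the nearest region lay 874 bp downstream, 891 bp wide, with a fold of 3.42 and a q-value of 1.31e-05. Cyp2c40 had AAV-Cre and AAV-GFP regions at 334 bp and 1137 bp, the latter with a q-value of 1.00. The 250 bases upstream of Cyp2c40 and Cyp2c69 were the same at 247 positions, and 55.7% and 61.5% of the 50-base words in their bodies occur once, so reads may have been split between them. Cyp2c38 had regions at 736 bp in the AAV-Cre list and 7673 bp in the AAV-GFP list. Cyp2c39 and Cyp2c37 were marked in the AAV-Cre list alone, at 1889 bp and 5982 bp, both with a q-value of 0.00860, and their nearest AAV-GFP regions lay 32218 bp and 31373 bp away. The other 9 genes of the cluster had no region over their body in either list. Among them was Cyp2c70, which makes muricholic acids in mouse liver, 188544 bp from the nearest AAV-Cre region.

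The third large cluster, chr7:25787475-27173668, holds 13 genes of subfamilies Cyp2a, Cyp2b, Cyp2f, Cyp2g, Cyp2s and Cyp2t. It held 105 AAV-Cre and 40 AAV-GFP regions over 7.01% and 0.740% of its bases, and 15 of the AAV-Cre regions (14.3%, 8.85 to 22.2) overlapped an AAV-GFP region. The ratio of covered bases was 9.47 here, against 3.14 in the Cyp3a cluster, 4.73 in the Cyp2c cluster and 4.94 over chromosomes 1 to 19. Not all of its regions concern P450 genes, since 34 AAV-Cre and 19 AAV-GFP regions overlapped other protein-coding genes. The 3 AAV-Cre regions of this cluster that were more than 15 kb from every member and in the strongest 10% of the list lay nearest to start sites of Axl or Nlrp9c. A stretch of 136 kb, chr7:26738665-26874799, over Cyp2b19, Cyp2g1 and Cyp2a5, held 29 AAV-Cre regions over 21.1% of its bases and 9 AAV-GFP regions over 1.25%.

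Within that stretch Cyp2b19, an arachidonic acid epoxygenase of the epidermis, had 51.7% of its body inside AAV-Cre regions and 6.70% inside AAV-GFP regions. Its start site lay in an AAV-Cre region of 425 bp with a q-value of 0.0230 and 4496 bp from an AAV-GFP region with a q-value of 1.00. Cyp2g1, an enzyme of the olfactory mucosa, had its start site in an AAV-Cre region and 28.5% of its body covered in that list, while the nearest AAV-GFP region lay 26809 bp away. Cyp2a5, a coumarin hydroxylase of liver, had regions 3516 bp and 396 bp downstream of its start site, the AAV-GFP one with a q-value of 0.979. Cyp2a22 and Cyp2f2, a naphthalene-oxidising enzyme, were marked in the AAV-Cre list alone. Their bodies were covered to 27.3% and 23.6%, and the AAV-Cre regions lay 1191 bp and 1385 bp downstream of the start sites, the latter with a fold of 4.99 and a q-value of 2.63e-11.

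**Figure D3:**
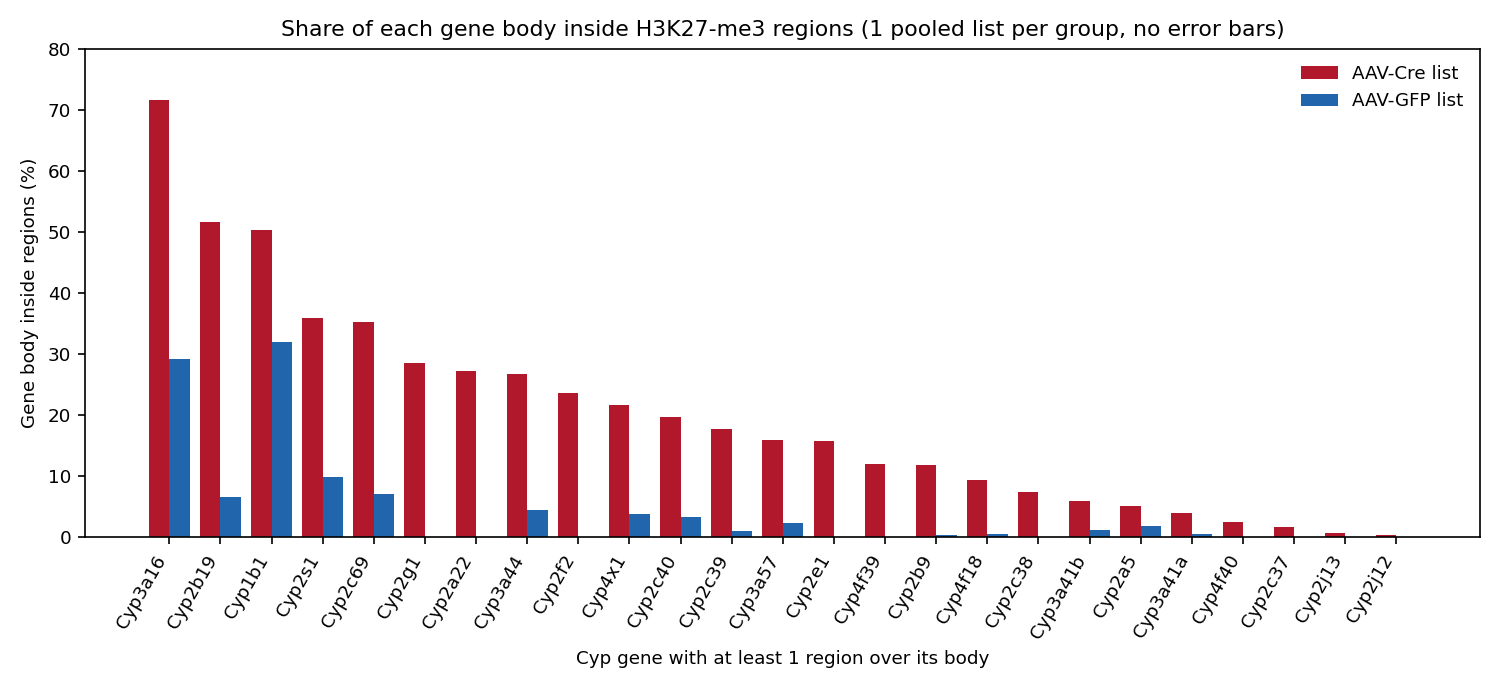
Percent of the gene body inside AAV-Cre (red) and AAV-GFP (blue) regions for each Cyp gene that overlaps at least 1 region, ordered by the AAV-Cre value; there are no error bars because each group has 1 pooled list. Cyp3a16 has the highest AAV-Cre value, 71.6%, and the AAV-Cre bar exceeds the AAV-GFP bar for every gene shown.

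The remaining clusters held few regions. In the Cyp4f cluster on chromosome 17 (8 genes) 16 AAV-Cre and 3 AAV-GFP regions covered 2.43% and 0.173% of the bases. Cyp4f39, an enzyme of skin lipid synthesis, had its start site in an AAV-Cre region of 1721 bp with a fold of 4.30 and a q-value of 1.73e-08, and the nearest AAV-GFP region lay 55366 bp away. Cyp4f13 and Cyp4f15 had single AAV-Cre regions 4379 bp and 9147 bp upstream. The strongest region of that cluster, with a fold of 7.48, lay over the start site of the zinc-finger gene Zfp811, 106751 bp from Cyp4f14. In the cluster of Cyp4a, Cyp4b and Cyp4x genes on chromosome 4, 14 AAV-Cre and 8 AAV-GFP regions covered 2.47% and 0.441%, nearly all at or beyond Cyp4x1. One of these, 36649 bp from Cyp4x1 with a fold of 5.42, was closer to the start site of Pdzk1ip1, at 5781 bp. Cyp4b1, a lung enzyme, had 1 AAV-Cre region of 588 bp, 9425 bp upstream. The Cyp2j cluster (8 genes, arachidonic acid epoxygenases) held 2 AAV-Cre regions, of 835 bp over the start site of Cyp2j13 with a q-value of 1.73e-08 and of 302 bp over that of Cyp2j12 with a q-value of 0.0302, and 0 AAV-GFP regions. The Cyp2d cluster (8 genes) and the Cyp1a pair held 0 regions in either list. A list gives only regions that passed its caller, so an empty cluster means that none was called at this unknown depth.

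**Figure D4:**
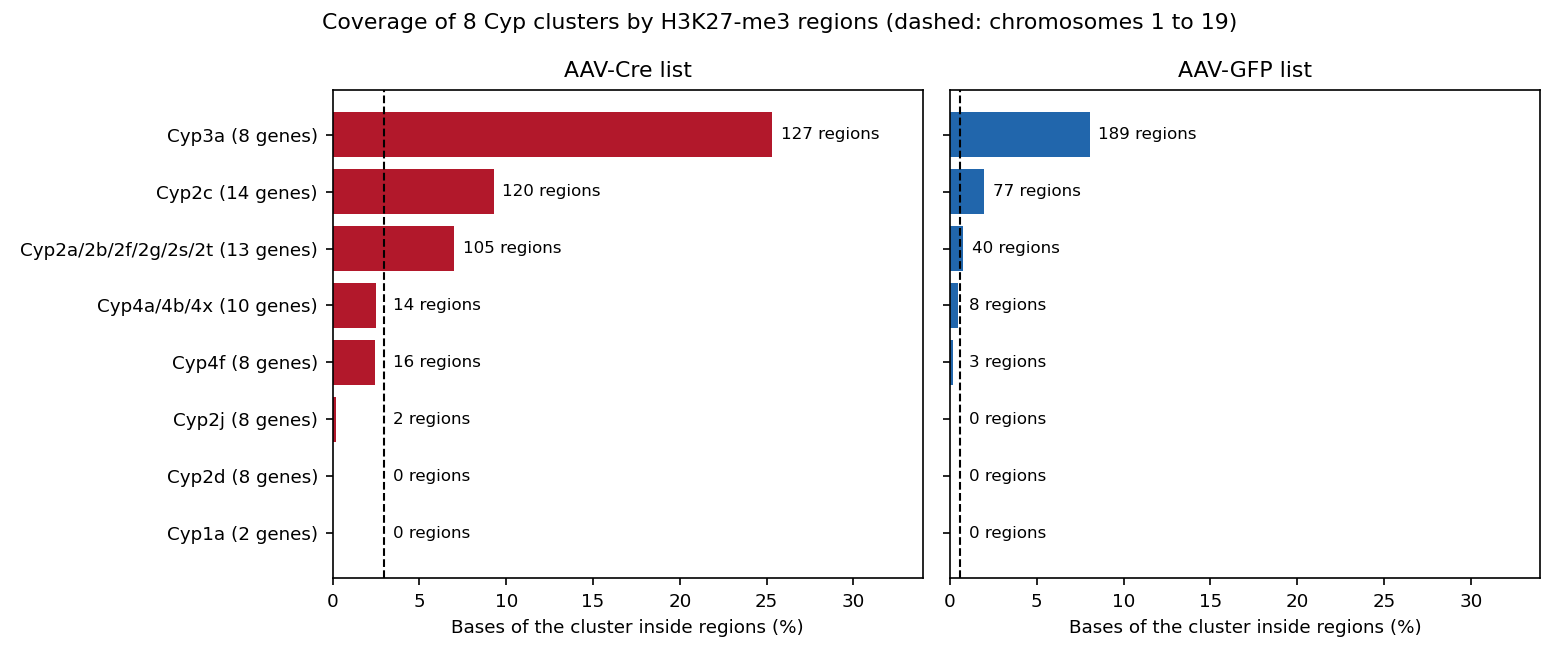
Percent of the bases of each of 8 Cyp clusters inside AAV-Cre (left) and AAV-GFP (right) regions, with the number of regions beside each bar and a dashed line at the share of chromosomes 1 to 19 (2.98% and 0.602%). The Cyp3a, Cyp2c and Cyp2a/2b clusters lie above the line in both panels and the other 5 below it.

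Over the 8 clusters together, 5.67 Mb in all, 384 AAV-Cre and 317 AAV-GFP regions covered 7.75% and 1.79% of the bases, a ratio of 4.32. Of the AAV-Cre regions 143 (37.2%, 32.6 to 42.2) overlapped an AAV-GFP region, against 24.1% in the whole list, and of the AAV-GFP regions 280 (88.3%, 84.3 to 91.4) overlapped an AAV-Cre region, against 86.3%. Most regions were not near member start sites. Of the AAV-Cre regions 255 and of the AAV-GFP regions 234 lay more than 15 kb from every member start site, and 191 and 192 overlapped no annotated gene. Member exons were overlapped by 48 AAV-Cre and 13 AAV-GFP regions and member introns alone by 80 and 66. Among regions over 15 kb from all member start sites and in the strongest 10% of their list there were 31 in the AAV-Cre list, of which 17 were in the Cyp3a and 9 in the Cyp2c cluster, and 14 in the AAV-GFP list, all 14 in the Cyp3a cluster. The 9 in the Cyp2c cluster lay between 18905 bp and 48002 bp from Cyp2c69 or Cyp2c37, with folds of 4.77 to 6.05. The 17 in the Cyp3a cluster lay between 16243 bp and 64701 bp from a member, with folds of 4.21 to 13.4.

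**Figure D5:**
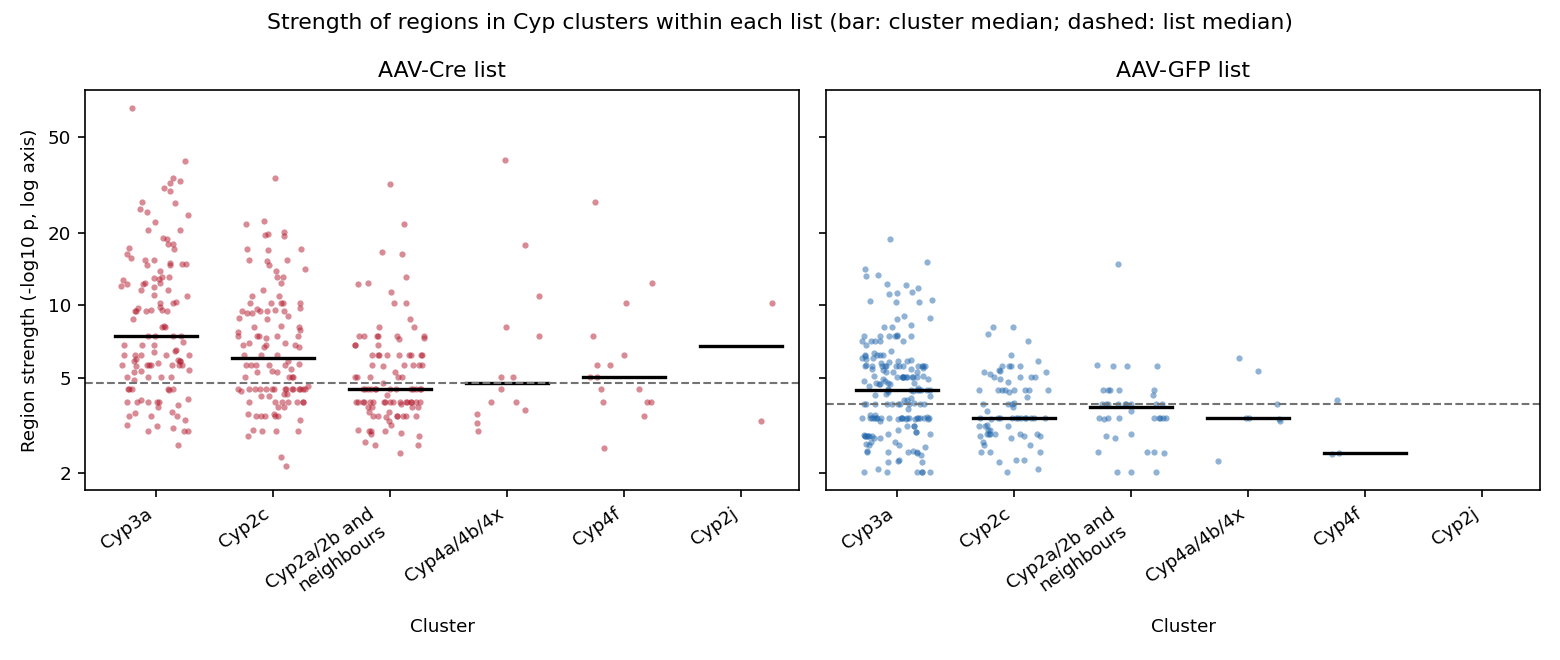
Strength of each region in 6 Cyp clusters as −log10 p on a log axis, for the AAV-Cre list (left) and the AAV-GFP list (right), with 1 point per region, a bar at the cluster's median and a dashed line at the median of the list (4.75 and 3.90). The medians of the Cyp3a cluster, 7.46 and 4.44, lie above the dashed line in both panels.

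Duplicated sequence differed between the clusters. The share of 50-base words found once was 66.5% in the Cyp3a cluster, 70.4% in the Cyp2c cluster, 74.7% in the Cyp2a/2b cluster, 71.4% in the Cyp4a/4b/4x cluster, 78.0% in the Cyp2d cluster and 91.3% in the Cyp4f cluster. Within each cluster with regions, words found once were covered more than words found repeatedly, by AAV-Cre regions 30.8% against 14.5% in the Cyp3a cluster and 11.2% against 4.76% in the Cyp2c cluster. The AAV-Cre list marked 16 of the 56 members with at least 80% unique words in their body and 8 of the 24 with fewer, and the AAV-GFP list marked 6 and 8. The part of duplicated sequence in the differences between members was not tested.

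The next lists hold P450 genes known to be expressed mainly in one sex in mouse liver, and all mice here were male. Of 9 genes known as female-biased in mouse liver, 6 were marked in the AAV-Cre list and the same 6 in the AAV-GFP list (Cyp2c40, Cyp2c69, Cyp3a16, Cyp3a41a, Cyp3a41b and Cyp3a44), beside 43.1% and 29.0% of all genes. Their median distance to the nearest region was 824 bp in the AAV-Cre list and 2949 bp in the AAV-GFP list. These 6 lie in 2 clusters and include 2 pairs of near-identical copies, so they are not independent cases. The 9 genes were chosen with an AAV-Cre region near Cyp3a41a already known, so their share is a description and not a test. The others, Cyp2a4, Cyp2b9 and Cyp2b13, lay 21312 bp, 25452 bp and 75869 bp from the nearest AAV-Cre region. Over the body of Cyp2b9, however, 6 AAV-Cre regions covered 11.8%, and AAV-GFP regions covered 0.400%. Of the 3 male-biased genes, the testosterone hydroxylase gene Cyp2d9 and the fatty acid hydroxylase genes Cyp4a12a and Cyp4a12b, 0 were marked in either list. They lay 110965 bp, 160326 bp and 245524 bp from the nearest AAV-Cre region. The 11 members marked in the AAV-Cre list alone included no gene of either list.

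The 11 members marked in the AAV-Cre list alone were Cyp4f39, Cyp4f15, Cyp4f13, Cyp2c39, Cyp2c37, Cyp2j13, Cyp2j12, Cyp4b1, Cyp2g1, Cyp2a22 and Cyp2f2. The single member marked in the AAV-GFP list alone was Cyp4f18, an enzyme of leukotriene breakdown in neutrophils. Its AAV-GFP region was 120 bp wide, 6864 bp downstream of the start site, with a q-value of 0.432, and the nearest AAV-Cre region, 526 bp wide, lay 16297 bp downstream, just outside the window. Cyp2e1, the ethanol- and acetaminophen-oxidising enzyme of liver, was marked in both lists. Its nearest regions lay 1268 bp upstream with a q-value of 0.0230 in the AAV-Cre list and 3547 bp upstream with a q-value of 0.979 in the AAV-GFP list. Within 15 kb of its start sites there were 9 AAV-Cre regions and 1 AAV-GFP region, and with only regions of a q-value up to 0.01 it stayed marked in the AAV-Cre list and not in the AAV-GFP list. Its body with 15 kb on each side held 14 AAV-Cre regions over 13798 bp and 9 AAV-GFP regions over 2306 bp. AAV-Cre regions covered 15.8% of its body and AAV-GFP regions none.

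Among the 55 members marked in neither list, 52 also had no region over their body in either list, the exceptions being Cyp4f40, Cyp3a57 and Cyp2b9. The nearest to an AAV-Cre region were Cyp2b10, the classical target of the receptor CAR, at 16303 bp, Cyp4f40 at 16620 bp and Cyp2t4 at 17342 bp. For these the nearest AAV-GFP regions lay 17455 bp, 150080 bp and 129058 bp away. The farthest were Cyp2d34 at 279576 bp, Cyp4a12b at 245524 bp and Cyp2d12 at 213720 bp. Their AAV-GFP distances were 290689 bp, 276391 bp and 261864 bp.

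Partner genes of the P450 system were counted in the same way. Of 8 genes for electron transfer and heme handling 7 lie on chromosomes 1 to 19, among them Por, the P450 reductase, and Alas1, the first enzyme of heme synthesis, and 0 of the 7 were marked in either list. Of 15 regulators 4 were marked in the AAV-Cre list and 3 in the AAV-GFP list. Cux2 and Ahrr, the repressor of the aryl hydrocarbon receptor, had start sites inside regions of both lists, with AAV-Cre folds of 12.4 and 4.91 and AAV-GFP folds of 4.66 and 2.69. Arnt lay 6304 bp and 6332 bp from regions, and Onecut1 was marked in the AAV-Cre list alone, at 3626 bp. Of 18 genes in other Cyp families 7 were marked in the AAV-Cre list and 6 in the AAV-GFP list. Cyp24a1, Cyp26b1 and Cyp27b1, which act on vitamin D and retinoic acid, had start sites inside regions of both lists, the lowest AAV-Cre fold among them being 9.73, at Cyp26b1. These shares, like those of families 1 to 4, are set beside 43.1% and 29.0% of all genes.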

How the data were processed

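H3K27-me3 ChIP-seq was done on livers of 2 mice per virus, with inputs. Per the labels and the study's methods, the authors mapped reads to mm10 with BWA 0.7.13, filtered with SAMtools 1.2 and Picard 1.126, called peaks with MACS against pooled input, and kept peaks that overlap across replicates, which gave 1 list per group. In these deposited lists each region has a fold enrichment over input (a ratio), a −log10 p-value and a −log10 q-value made by the authors, and q-values printed here were converted back from it. They carry no read counts, so depth per sample is unknown.

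Regions were compared with GENCODE M21 protein-coding genes and the GRCm38 reference in Python 3.11.15 with numpy 2.4.6, scipy 1.17.1 and matplotlib 3.10.9. Marked genes had a region no farther than 15 kb from a start site of a basic protein-coding transcript. Clusters joined members up to 500 kb apart and were extended by 15 kb on each side. Overlap meant at least 1 bp, and shares of overlapping regions have Wilson 95% intervals for counting error only. Distances and overlaps were tested on simulated regions. Uniqueness was the share of 50-base words, on both strands, found once in the reference.

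The members, lists and rules were chosen with earlier results of these data known. Named were all marked members, the 3 nearest and 3 farthest unmarked ones, the sex-biased genes, and regions over 15 kb from all member start sites in the strongest 10% of their list. Other unmarked members and partner genes were named after their values were seen. No test between groups was made. Alternatives covered the peak threshold, list size, region width, window, start sites, cluster bounds and overlap.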

Additional observations from a re-analysis of the deposited data

How the results depend on the processing

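Of 63 recomputed values 40 stayed within 1.5 times the reported count or share of bases, or within the Wilson 95% interval of the reported overlap, and 23 did not. With a window of 1 kb 14 members were marked in the AAV-Cre list and 7 in the AAV-GFP list. With 50 kb these counts were 43 and 27. All genes moved too, to 24.6% and 17.1% at 1 kb and to 63.9% and 48.3% at 50 kb. The members thus stayed below all genes at either window. At 50 kb 17 members were marked only in the AAV-Cre list, and the all-gene share for this count was not recomputed. With regions kept only up to a q-value of 0.05, or up to 0.01, 9 members were marked in the AAV-GFP list, a loss of 5. The AAV-Cre list kept 24 and 23 of its 24. Of all genes 22.3% and 20.1% were marked in the AAV-GFP list at these thresholds, and 41.9% and 39.9% in the AAV-Cre list. The clusters then held 151 and 110 AAV-GFP regions over 1.09% and 0.879% of the bases, and 23.3% and 21.1% of AAV-Cre regions overlapped one. With regions of at least 300 bp the clusters held 109 AAV-GFP regions over 1.09% of the bases, and the overlap was 17.4%. When 0.5 of the AAV-Cre region had to be covered it was 7.55%. No member (0) was marked only in the AAV-GFP list under either q-value threshold, at 300 bp, at a 5 kb window or with start sites of all annotated transcripts. With the strongest 34586 regions of each list 22 members were marked in the AAV-Cre list, all among the 24, beside 37.5% of all genes. The share of AAV-Cre regions in the Cyp clusters that overlapped an AAV-GFP region was then 48.3% (42.4 to 54.3). Overlap over the whole lists was not recomputed under these settings. The overlap shares given here therefore have no matching background.

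Single mice could not be left out, since each list combines both mice of a group. No paired analysis was possible because the lists hold no values per replicate. Differences between the lists are therefore unreplicated, unknown depth limits what an empty locus shows, and regions in duplicated genes are uncertain.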
